A study of Homo sapiens with 6 samples.

Results

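The 10 genes described here are transcription factors of the epithelial-to-mesenchymal transition (EMT) together with markers of its epithelial and mesenchymal ends: SNAI1, SNAI2, ZEB1, ZEB2, TWIST1, VIM, CDH1, CDH2, EPCAM and ESRP1. They were taken by symbol from the 27009 genes of the table, and all 10 were found. RNA had been sequenced from Hep3B cells, a human liver cancer line, in 6 libraries. The cells of both groups carried a knockout of endogenous PD-L1. The 3 vector libraries came from knockout cells given the vector, and the 3 libraries labelled nPD-L1 came from knockout cells that overexpressed nPD-L1, a PD-L1 mutated so that it is held in the nucleus. The nPD-L1 sequence had been delivered by lentivirus in a puromycin-selectable plasmid with a CMV promoter, and whether the stable cells were 1 clone or a pool was not given in the sources used here. Nothing in the labels ties the replicates to separate cultures, so p values measure the spread between these libraries, which may be technical.

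EMT is a change of cell state in which epithelial cells loosen their junctions and take on the form and motility of mesenchymal cells. Snail (SNAI1), Slug (SNAI2), ZEB1 and ZEB2 are zinc finger repressors that bind E-box sequences in the promoters of epithelial genes such as CDH1, and TWIST1 is a basic helix-loop-helix factor that acts on the same program. E-cadherin (CDH1), EpCAM (EPCAM) and the splicing regulator ESRP1 mark epithelial cells, whereas N-cadherin (CDH2) and vimentin (VIM) mark mesenchymal cells. Carcinoma lines often express genes of both ends.

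Values are scaled reads, the reads counted on a gene divided by a size factor of its library. They summed to between 18082164 and 19682128 per library, and the 4 libraries in which whole reads were recovered held 17427519 to 22253295 reads on genes. CD274, the gene of PD-L1, had 28.3, 38.4 and 47.8 scaled reads in vector replicates 1, 2 and 3. The replicates labelled nPD-L1 had 16.8, 19.2 and 30.9 (log2 fold change −0.76, standard error (SE) 0.34, limma adjusted p = 0.338). It was not higher where a PD-L1 sequence had been introduced, and every direction below rests on the labels. The defining hepatocyte markers were near 0 in all libraries: ALB lay between 0 and 2.02 scaled reads, APOB between 0 and 2.02 and TTR between 0 and 2.89, while FGB, a fibrinogen chain, lay between 962 and 1540. Of the 9 hepatocyte markers analysed here, 4 passed the minimum, and their sum over the list was 1106 to 1645 in the vector libraries and 1163 to 1276 in those labelled nPD-L1. These levels go against the labelled line in both groups alike, and the cells are called by their label here. Markers of endothelial cells (0 of 3 analysed passed the minimum) and leukocytes (1 of 4) were near the floor, with summed levels of at most 8.09 and 18.1.

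The question here was whether the EMT regulators and the markers they act on differed between nPD-L1 and vector. Of the 10 genes, 2 were higher in the libraries labelled nPD-L1, SNAI1 and SNAI2, and 0 were lower. All 10 genes had at least 10 scaled reads in every library and were tested with limma on log2(value + 1), with p values adjusted over the 15076 genes tested. In the same test 4.04% of all genes were higher and 0.922% lower (4.96% in either direction) at an adjusted p under 0.05. The 10 genes were chosen with earlier results of these data known, so their count beside these shares is a description. No lower gene was found among the 10 at an unadjusted p under 0.05 either (0), nor by edgeR (0) or DESeq2 (0) on 4 libraries. The groups did not overlap for 3 genes (SNAI1, SNAI2 and CDH1), all higher with nPD-L1, where 12.0% of all genes tested were higher without overlap and 8.54% lower (20.6% together). The median log2 fold change of the 10 genes was 0.18, beside −0.02 for all genes tested.

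**Figure D1:**
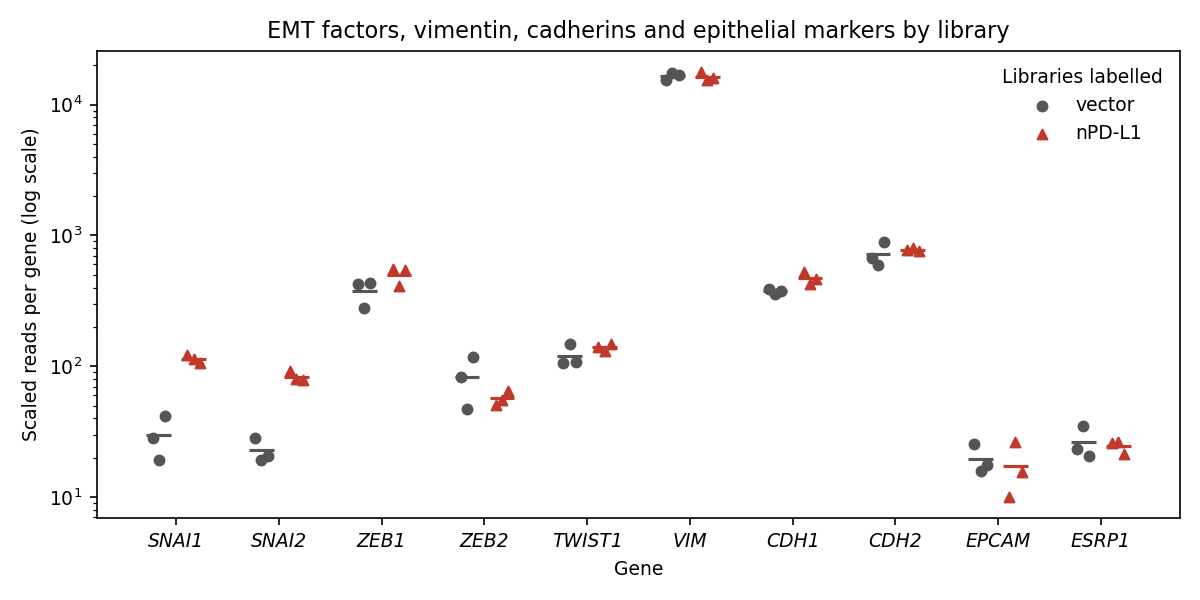
Scaled reads of each of the 10 genes (log axis) in the 3 vector libraries (grey circles) and the 3 libraries labelled nPD-L1 (red triangles), with a line at each group's mean. The red triangles of SNAI1 (106 to 123) and SNAI2 (78.1 to 91.6) lie above all grey circles of the same gene, whereas for VIM, CDH2, EPCAM and ESRP1 the groups lie at the same height.

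SNAI1 (ENSG00000124216; hg38 chromosome 20, 49982999 to 49988886, + strand) encodes Snail. Its values were 28.3, 19.2 and 41.6 scaled reads in vector replicates 1, 2 and 3 and 123, 114 and 106 in nPD-L1 replicates 1, 2 and 3. The lowest nPD-L1 library was above the highest vector library, and the vector libraries varied more among themselves. In bulk RNA such as this, a change in the share of cells that express a gene and a change in its RNA per cell cannot be told apart. The means were 29.7 ± 11.3 and 114 ± 8.29 (SD, n = 3), a ratio of 3.85. The log2 fold change was 1.97 (SE 0.28, 95% interval 1.35 to 2.60, limma adjusted p = 0.00187). In recovered reads, vector replicates 2 and 3 held 17 and 40 reads on SNAI1 and nPD-L1 replicates 1 and 3 held 146 and 110, and the exact Poisson interval of the highest vector library, 28.6 to 54.5 reads, does not reach that of the lower nPD-L1 library, 90.4 to 133. Such intervals cover counting error only.

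SNAI2 (ENSG00000019549; chromosome 8, 48917604 to 48921740, − strand) encodes Slug, the close relative of Snail. It had 28.3, 19.2 and 20.8 scaled reads in vector replicates 1, 2 and 3 and 91.6, 79.9 and 78.1 in nPD-L1 replicates 1, 2 and 3. Again no vector library came near the lowest nPD-L1 library. Its mean rose from 22.7 ± 4.84 to 83.2 ± 7.32 (SD, n = 3; ratio 3.66), with a log2 fold change of 1.84 (SE 0.25, 95% interval 1.28 to 2.40, limma adjusted p = 0.00141). Both Snail family genes were called in all 18 alternatives. Their log2 fold changes were 1.68 to 2.24 for SNAI1 and 1.52 to 2.09 for SNAI2. The adjusted p from limma, edgeR or DESeq2 was at most 0.0261 for SNAI1 and 0.0199 for SNAI2. Alternatives that changed only the threshold reused the main fit, and those that changed only the filter, moderation or block kept its log2 fold changes. By exact permutation (two-sided), p was 0.1 for each gene, the smallest value that 3 libraries against 3 allow. No other gene of the table overlaps either of them. The third family member, SNAI3, lay between 5.20 and 18.2 scaled reads and was too low to be tested.

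Genes whose levels followed these over the 6 libraries were searched by Pearson's r on log2(value + 1), as a description. For SNAI1 the most alike were DNMT3B, a DNA methyltransferase (r = 0.9995), ELF4, an ETS factor (0.999), and PPM1D, a phosphatase (0.999). For SNAI2 they were SPTB, a spectrin chain, EFNA2, an ephrin ligand, and FOXN3, a forkhead repressor, each at r = 0.998. The points share the 2 groups, and no p is given.

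The ZEB factors did not pass the test. ZEB1 (ENSG00000148516; chromosome 10, 31318495 to 31529814, + strand), which represses CDH1 and other epithelial genes, had 425, 277 and 432 scaled reads in vector replicates 1, 2 and 3 and 550, 413 and 541 in nPD-L1 replicates 1, 2 and 3. Vector replicate 2 and nPD-L1 replicate 2 were each the lowest of their group, and the groups overlapped. The log2 fold change was 0.42 (SE 0.19, 95% interval 0.01 to 0.84, limma adjusted p = 0.340). The adjusted p ranged from 0.0406 to 0.745 over its alternatives, and 1 of them, a fit with replicate number as a block, put it under the threshold. ZEB1-AS1, on the opposite strand and overlapping ZEB1, had 71.7, 84.7 and 53.0 with the vector and 33.6, 74.8 and 65.6 with nPD-L1. The library kit does not mark strand, so reads of the overlap cannot be assigned to either gene, but all values of ZEB1-AS1 were well under those of ZEB1.

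ZEB1 is also one of the 4 genes of the 10 with an entry in the RefSeq promoter table (GRCh38.p14; windows from 250 bases before to 50 bases after a start site); the others were ZEB2, VIM and CDH2. Its first window is shown because the Snail and ZEB proteins bind the E-box CAGGTG, which reads CACCTG on the other strand, and this window at chr10:31318167-31318466, + strand, holds 1 such match, 57 bases before the start site, in capitals:
ZEB1 promoter: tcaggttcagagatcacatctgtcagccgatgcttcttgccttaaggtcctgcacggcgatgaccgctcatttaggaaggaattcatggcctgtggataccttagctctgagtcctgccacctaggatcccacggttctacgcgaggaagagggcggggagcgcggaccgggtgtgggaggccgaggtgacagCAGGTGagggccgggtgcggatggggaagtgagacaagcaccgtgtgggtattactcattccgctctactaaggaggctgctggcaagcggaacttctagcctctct

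Of 7 windows of ZEB1, the third held 3 E-box matches, and the windows of ZEB2, VIM and CDH2 held none. Thus 2 of 11 windows of these genes matched, where 20.6% of the 35116 windows in the table do. The AP-1 motif TGACTCA (or TGAGTCA), the site of JUN and FOS dimers, was in 0 of the 11 and in 4.95% of all windows. A match is a description of letters, not of binding.

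ZEB2 (ENSG00000169554; chromosome 2, 144364364 to 144524583, − strand), the second ZEB repressor, had 82.8, 47.4 and 117 scaled reads with the vector and 50.4, 55.6 and 64.6 with nPD-L1. The vector libraries spanned the whole range of the nPD-L1 libraries. The log2 fold change was −0.44 (SE 0.31, 95% interval −1.13 to 0.24, limma adjusted p = 0.598). TWIST1 (ENSG00000122691; chromosome 7, 19020991 to 19117672, − strand) had 106, 147 and 107 scaled reads with the vector and 140, 130 and 148 with nPD-L1. Vector replicate 2 lay within the nPD-L1 range, and the log2 fold change was 0.23 (SE 0.18, 95% interval −0.17 to 0.64, limma adjusted p = 0.645). Its paralog TWIST2 ranged from 122 to 156 with the vector and from 114 to 169 with nPD-L1.

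**Figure D2:**
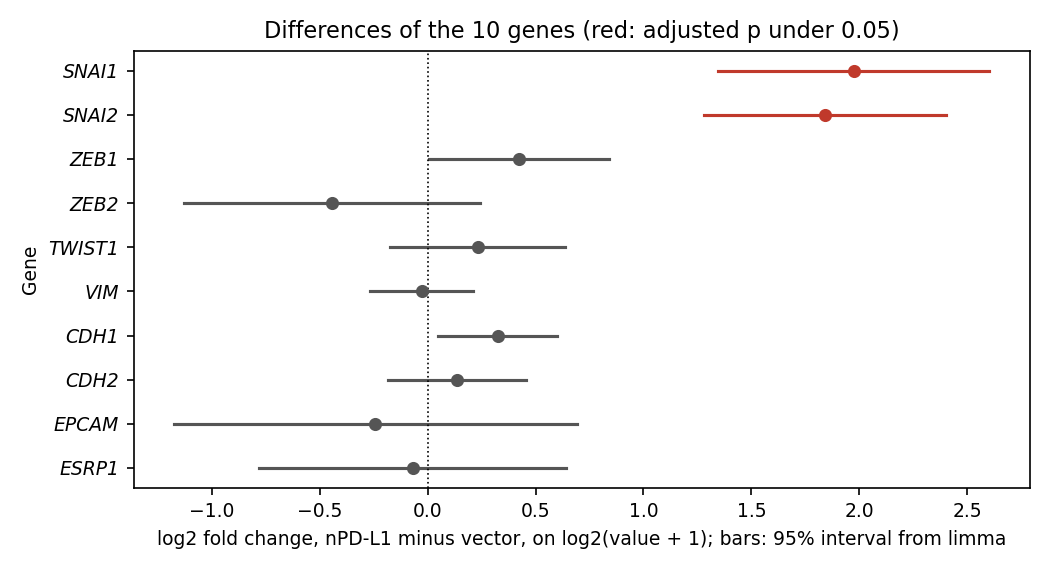
log2 fold change of nPD-L1 minus vector on the log2(value + 1) scale for the 10 genes, with 95% intervals from limma. Points and bars are red where the adjusted p was under 0.05, which are SNAI1 (1.97) and SNAI2 (1.84). The intervals of ZEB1 (0.01 to 0.84) and CDH1 (0.05 to 0.60) lie just above 0, and the other 6 cross it.

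The mesenchymal markers differed less than their libraries did. VIM (ENSG00000026025; chromosome 10, 17228259 to 17237593, + strand) encodes vimentin, the intermediate filament protein of mesenchymal cells. It had 15459, 17580 and 16983 scaled reads in vector replicates 1, 2 and 3 and 17764, 15452 and 15850 in nPD-L1 replicates 1, 2 and 3, and each group had libraries at both ends of the range. The log2 fold change was −0.03 (SE 0.11, limma adjusted p = 0.931), and its 95% interval of −0.27 to 0.21 corresponds to folds of 0.830 to 1.16. VIM-AS1, on the opposite strand, had 34.3, 44.0 and 34.3 with the vector and 63.0, 75.9 and 55.0 with nPD-L1, all far under the values of VIM.

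CDH2 (ENSG00000170558; chromosome 18, 27950966 to 28177446, − strand), the cadherin that often replaces E-cadherin in EMT, had 675, 591 and 886 scaled reads with the vector and 771, 798 and 763 with nPD-L1. The nPD-L1 libraries lay close together inside the vector range (log2 fold change 0.14, SE 0.14, 95% interval −0.18 to 0.46, limma adjusted p = 0.731). CDH1 (ENSG00000039068; chromosome 16, 68737225 to 68835548, + strand) encodes E-cadherin, the adherens junction receptor that Snail and ZEB proteins repress. Its values were 388, 358 and 376 in vector replicates 1, 2 and 3 and 523, 423 and 464 in nPD-L1 replicates 1, 2 and 3. All 3 nPD-L1 libraries were above all 3 vector libraries, with means of 374 ± 14.9 and 470 ± 50.2 (SD, n = 3) and a ratio of 1.26. The log2 fold change was 0.32 (SE 0.12, 95% interval 0.05 to 0.60). It did not pass the adjusted threshold (limma adjusted p = 0.237, two-sided exact permutation p = 0.1, the smallest value possible here). CDH1 was among the 14.2% of all genes tested with an unadjusted limma p under 0.05, at rank 1585 of 15076. Its log2 fold change was positive in all 18 alternatives, from 0.24 to 0.43. Those that changed only the threshold, filter, moderation or block could not alter it. Per kilobase of gene length, CDH2 exceeded CDH1 in every library, by 2.17, 2.06 and 2.94 times with the vector and by 1.84, 2.36 and 2.05 times with nPD-L1, and these ratios overlapped. VIM exceeded CDH1 per kilobase by 47.8, 58.8 and 54.1 times with the vector and by 40.7, 43.8 and 40.9 times with nPD-L1, so that this ratio was lower in every nPD-L1 library. The ratio was not tested, and it holds the same CDH1 values, so it is not a separate result. Of all single genes tested, 20.6% did not overlap between the groups.

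The epithelial markers EPCAM and ESRP1 were scarce in both groups. EPCAM (ENSG00000119888; chromosome 2, 47345158 to 47387601, + strand) encodes an adhesion protein of epithelial and carcinoma cells. Its values were 25.2, 15.8 and 17.7 scaled reads with the vector and 10.1, 26.3 and 15.4 with nPD-L1, so that both the lowest and the highest library were labelled nPD-L1 (log2 fold change −0.24, 95% interval −1.17 to 0.69, limma adjusted p = 0.842). ESRP1 (ENSG00000104413; chromosome 8, 94641074 to 94707466, + strand) directs epithelial splice forms. It had 23.2, 35.0 and 20.8 with the vector and 26.1, 26.3 and 21.2 with nPD-L1 (log2 fold change −0.07, 95% interval −0.78 to 0.64, limma adjusted p = 0.944). The recovered libraries held 12 to 17 reads on EPCAM and 20 to 31 on ESRP1, and the intervals of their differences span folds of 0.443 to 1.61 and 0.582 to 1.56. Differences inside these intervals could not be told from none with 3 libraries a group.

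**Figure D3:**
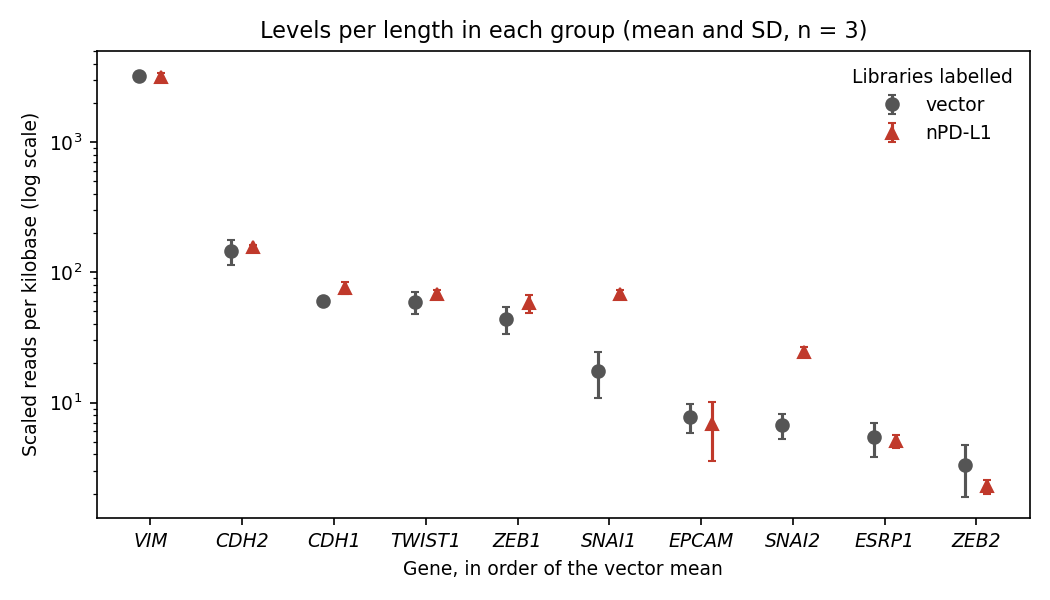
Scaled reads per kilobase of gene length (log axis) of the 10 genes, ordered by the vector mean, as group means with SD (n = 3) for vector (grey circles) and nPD-L1 (red triangles). VIM stands far above the others (3233 and 3171), and the red triangles of SNAI1 (67.8) and SNAI2 (24.5) are apart from their grey circles (17.6 and 6.71).

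Divided by gene length, the levels ordered as VIM, CDH2, CDH1, TWIST1, ZEB1, SNAI1, EPCAM, SNAI2, ESRP1 and ZEB2 in the vector libraries. VIM stood at 3233 ± 212 scaled reads per kilobase (SD, n = 3), above 98.5% of the genes tested, and ZEB2 was the lowest at 3.29 ± 1.40. The place of ZEB2 rests on its given length of 25058 bases. Before division by length its vector mean, 82.5 scaled reads, was above that of SNAI1 (29.7). CDH2 had 145 per kilobase, CDH1 60.5, TWIST1 59.0 and ZEB1 43.7. CDH1 and TWIST1 did not differ beyond their libraries, nor did EPCAM (7.77), SNAI2 (6.71), ESRP1 (5.40) and ZEB2, each compared with the next. In the libraries labelled nPD-L1, SNAI1 moved up beside TWIST1 and ZEB1. It had 67.8 ± 4.92 per kilobase (SD, n = 3), TWIST1 had 68.6 and ZEB1 58.0, and neighbours in the run from CDH1 (76.1) through TWIST1 and SNAI1 to ZEB1 overlapped. SNAI2, at 24.5 ± 2.16 per kilobase (SD, n = 3), was above all EPCAM libraries (at most 10.4), whereas the vector libraries of these genes overlapped. Among the genes tested, the level of SNAI1 per kilobase exceeded 22.7% with the vector and 46.9% with nPD-L1, and that of SNAI2 exceeded 10.6% and 27.4%.

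Other genes of the EMT and epithelial program were described in 10 lists, with the 10 genes left out. The lists were chosen with earlier results of these data known, so their counts are a description and not a test of the program. Of 210 listed genes, 193 were in the table and 162 could be tested: 18 were higher and 6 lower with nPD-L1, beside 4.04% and 0.922% of all genes. Their median log2 fold change was 0.07. The counts depended on single libraries, with 9 higher genes without nPD-L1 replicate 1 and 10 without nPD-L1 replicate 3, and with 3 lower genes without vector replicate 1 and 3 without nPD-L1 replicate 1. A list without a called gene is given with its most abundant members. Some counts below use an unadjusted limma p under 0.05. At that level 1436 of the 15076 genes tested were higher and 710 lower (14.2% together).

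Of 11 other EMT transcription factors tested, 1 was higher and 0 were lower (median 0.02), with 3 higher and 1 lower at an unadjusted limma p under 0.05 and 0 of either in edgeR or DESeq2 on 4 libraries. A lower gene also passed the adjusted threshold with no filter on low values (1), a pseudocount of 10 (1), the replicate block (1) or without vector replicate 2 (1). FOXQ1, a forkhead factor named after its values were seen, just missed the threshold at 117 ± 16.3 scaled reads with the vector against 62.9 ± 14.9 with nPD-L1 (SD, n = 3, no overlap, log2 fold change −0.90, limma adjusted p = 0.0508). FOXC1, a forkhead factor, had 116, 94.9 and 110 scaled reads with the vector and 208, 208 and 178 with nPD-L1 (log2 fold change 0.89, limma adjusted p = 0.00888). It was no longer called without nPD-L1 replicate 1 or 2 or in the fits on 4 libraries (adjusted p up to 0.143). SOX4 and TCF3, which had the highest levels per kilobase of the list averaged over both groups, were not called (0.28 and −0.05). Of the 20 cofactors and turnover factors of Snail and ZEB proteins, 0 were called in limma (median 0.04), with 4 higher and 1 lower at an unadjusted p under 0.05 and 0 in edgeR or DESeq2. This count depended on single libraries, with 2 higher and 1 lower without vector replicate 2 and 1 higher without vector replicate 3, and it was 3 higher with the replicate block and 1 higher with no filter. Among them were AJUBA, a Snail corepressor, at 3418 and 3509, and the histone deacetylase HDAC1 at 2385 and 2437 scaled reads with the vector and nPD-L1.

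Epithelial transcription factors moved in both directions, with 2 higher and 2 lower of 9 tested (median −0.31). FOXA1, a pioneer factor of liver and other epithelia, had 262, 242 and 253 scaled reads with the vector and 514, 476 and 510 with nPD-L1 (log2 fold change 0.99, limma adjusted p = 0.000574). HNF4A, a hepatocyte nuclear factor, had 19.2, 11.3 and 6.24 with the vector and 51.3, 51.6 and 33.8 with nPD-L1 (1.91, limma adjusted p = 0.0232), and lost its call whichever nPD-L1 library was left out and on 4 libraries (adjusted p up to 0.134). Vector replicate 3 was under the minimum for HNF4A, and its log2 fold change ran from 1.34 to 2.29 over all settings. FOXA2, the paralog of FOXA1, moved the other way, from 1856, 1752 and 1953 with the vector to 742, 700 and 661 with nPD-L1 (log2 fold change −1.40, limma adjusted p = 1.23e-05). KLF5, an epithelial Kruppel-like factor, fell by 0.86 on the log2 scale (1480 ± 260 to 810 ± 37.2, SD, n = 3; limma adjusted p = 0.00289), and was not called in limma on 4 libraries (0.0569). ELF3, with FOXA2 the highest of the list per kilobase, was not called (−0.46, limma adjusted p = 0.214).

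Among junction genes, 2 claudins changed in opposite directions. Of 29 tight junction, polarity and desmosome genes tested, 4 were higher and 1 was lower (median 0.23). CLDN4, a sealing claudin, had 37.3, 26.0 and 29.1 scaled reads with the vector and 284, 292 and 280 with nPD-L1 (log2 fold change 3.19, SE 0.19, limma adjusted p = 4.16e-06). CLDN1, a claudin of tight junctions, had 3196, 3235 and 3276 with the vector and 1598, 1813 and 1962 with nPD-L1 (log2 fold change −0.86, SE 0.10, limma adjusted p = 0.000567). The libraries of the groups did not overlap for either claudin. CGN, which encodes cingulin (0.96), EVPL, which encodes envoplakin (0.67), and CLDN14 (2.24) were also higher. CLDN14 rested on 2.02, 2.26 and 4.16 scaled reads with the vector and 13.4, 19.2 and 17.4 with nPD-L1, so its fold depends on the pseudocount. It met the minimum only through the nPD-L1 libraries, where it was high. With 10 scaled reads required in all 6 libraries, 3 junction genes were higher and 1 was lower. Without nPD-L1 replicate 1 or 3, CGN and EVPL were no longer called (adjusted p up to 0.0717 and 0.0708 over their alternatives), and CLDN14 was not called without vector replicate 1 or any nPD-L1 library (up to 0.364). On 4 libraries EVPL was not called in edgeR or limma, nor CLDN14 in edgeR, DESeq2 or limma. The 4 higher genes thus became 1 without nPD-L1 replicate 1 and 1 without nPD-L1 replicate 3. SCRIB, an abundant polarity gene, was not called (−0.17).

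The promoter windows of CLDN4 (chr7:73830746-73831045, + strand) and CLDN1 (chr3:190322397-190322696, − strand), both GRCh38.p14, are shown as those of the junction genes called in opposite directions. Capitals mark the AP-1 motif TGACTCA, which lies 161 bases before the start site of CLDN4 and was not found for CLDN1. Neither window holds the E-box letters. The AP-1 letters were in 4.95% of all windows in the table, and the windows of other junction genes were not searched. Whether the motif has a part in either change was not tested.
CLDN4 promoter: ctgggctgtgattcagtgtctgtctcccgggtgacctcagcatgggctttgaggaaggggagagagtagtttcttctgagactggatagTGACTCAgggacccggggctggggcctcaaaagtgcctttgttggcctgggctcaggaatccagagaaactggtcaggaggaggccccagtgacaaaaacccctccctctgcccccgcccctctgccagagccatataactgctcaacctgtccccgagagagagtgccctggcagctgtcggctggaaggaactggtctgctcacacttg
CLDN1 promoter: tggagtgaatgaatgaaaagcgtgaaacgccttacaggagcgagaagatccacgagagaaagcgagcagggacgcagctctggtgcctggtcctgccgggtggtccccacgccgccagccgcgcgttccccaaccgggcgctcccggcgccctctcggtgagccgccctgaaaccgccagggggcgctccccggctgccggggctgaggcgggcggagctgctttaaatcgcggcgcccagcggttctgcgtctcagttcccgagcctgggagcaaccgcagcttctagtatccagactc

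Of the 14 other cadherin, catenin and nectin genes tested, 2 were higher and 0 lower in limma (median 0.10), with 0 lower also at an unadjusted p under 0.05 and in edgeR or DESeq2 on 4 libraries. JUP, plakoglobin, had 4412 scaled reads with the vector and 6692 with nPD-L1 (log2 fold change 0.62, limma adjusted p = 0.0258), and NECTIN4, an adhesion receptor, 12.1 and 49.6 (2.01, limma adjusted p = 0.0267). Both lost their call whichever nPD-L1 library was left out and on 4 libraries (adjusted p up to 0.454 and 0.149), and JUP also without vector replicate 1. NECTIN4 lay around the minimum with the vector, at 5.65 to 18.2 scaled reads, and its log2 fold change ran from 1.42 to 2.35 over all settings. CTNNA1, alpha-catenin, was not called (0.10). Of 11 EPCAM partners tested, 0 were higher and 1, CLDN1, was lower in limma (median −0.12). At an unadjusted p under 0.05 1 was higher, in edgeR or DESeq2 0 were, and the abundant protease inhibitor gene SPINT2 was not called (−0.20). Of 13 keratin and other intermediate filament genes beside VIM, 0 were called in limma (median 0.01), with 2 higher and 1 lower at an unadjusted p under 0.05, 0 in edgeR, 1 higher in DESeq2, 1 higher with the replicate block and 1 higher without vector replicate 3. KRT81 had 129307 and 105694 scaled reads with the vector and nPD-L1 (−0.30, limma adjusted p = 0.331), although its reads could be shared with the near-identical KRT86, and KRT7 had 24578 to 37356 over all libraries. Of 9 splicing regulators beside ESRP1, 0 were called in limma (median 0.04), at an unadjusted p under 0.05 or in edgeR or DESeq2, with PTBP1 at 12967 and 12979 and HNRNPM at 9526 and 8532.

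Of 24 mesenchymal effector genes beside VIM and CDH2, 2 were higher and 0 lower in limma, with a median of −0.0004. At an unadjusted p under 0.05, 7 were higher and 1 lower, and edgeR and DESeq2 on 4 libraries each called 2 higher and 0 lower. The 2 higher genes became 5 without vector replicate 3, 5 with the replicate number as a block and 4 with no filter on low values, and without vector replicate 2 there were 3 higher and 1 lower. COL1A1, a fibrillar collagen chain, had 82.8, 63.2 and 49.9 scaled reads with the vector and 465, 445 and 487 with nPD-L1 (log2 fold change 2.84, limma adjusted p = 7.99e-06). It was called in all 18 alternatives, and ITGB1, highest of these effectors per kilobase, was not called (0.07). COL1A1 is also a fibroblast marker. Of 5 fibroblast markers analysed here 2 passed the minimum, COL1A1 and LUM, and the list summed to 174 to 245 with the vector and 594 to 659 with nPD-L1. The defining markers PDGFRB and DCN stayed between 0 and 8.31, and LUM was at 99.9 to 182 with the vector and 112 to 161 with nPD-L1. The part of fibroblasts in the result was not tested.

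Of 24 genes of the signals that induce EMT, 7 were higher and 3 lower (median 0.25). The 6 with the largest changes were SKIL, SMAD7, BAMBI, NOTCH1, JAG1 and IL6. SKIL, a SMAD corepressor, went from 614 to 8770 scaled reads (log2 fold change 3.83), SMAD7, an inhibitory SMAD, from 580 to 2680 (2.21), and BAMBI, a pseudoreceptor of the family, from 346 to 1185 (1.77). The list thus holds inhibitors beside inducers, and its counts give no direction of signalling. NOTCH1 went from 397 to 1499 (1.96) and its ligand gene JAG1 from 3845 to 6436 (0.77), the latter losing its call without vector replicate 1 or nPD-L1 replicate 1 or 3, or on 4 libraries in edgeR and limma (adjusted p up to 0.130). IL6, a cytokine gene, had 52.5, 82.4 and 23.9 with the vector and 4.20, 5.06 and 11.6 with nPD-L1 (−2.71, limma adjusted p = 0.0106), and was not called without vector replicate 1 or nPD-L1 replicate 1, or on 4 libraries in edgeR and limma (up to 0.107). Without either of these replicates 0 of the 24 genes were lower and 5 were higher in limma. The ligand gene TGFB1 (2910 and 3799 scaled reads, 0.39, limma adjusted p = 0.166) and HIF1A (5826 and 5857, 0.01) were not called.

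**Figure D4:**
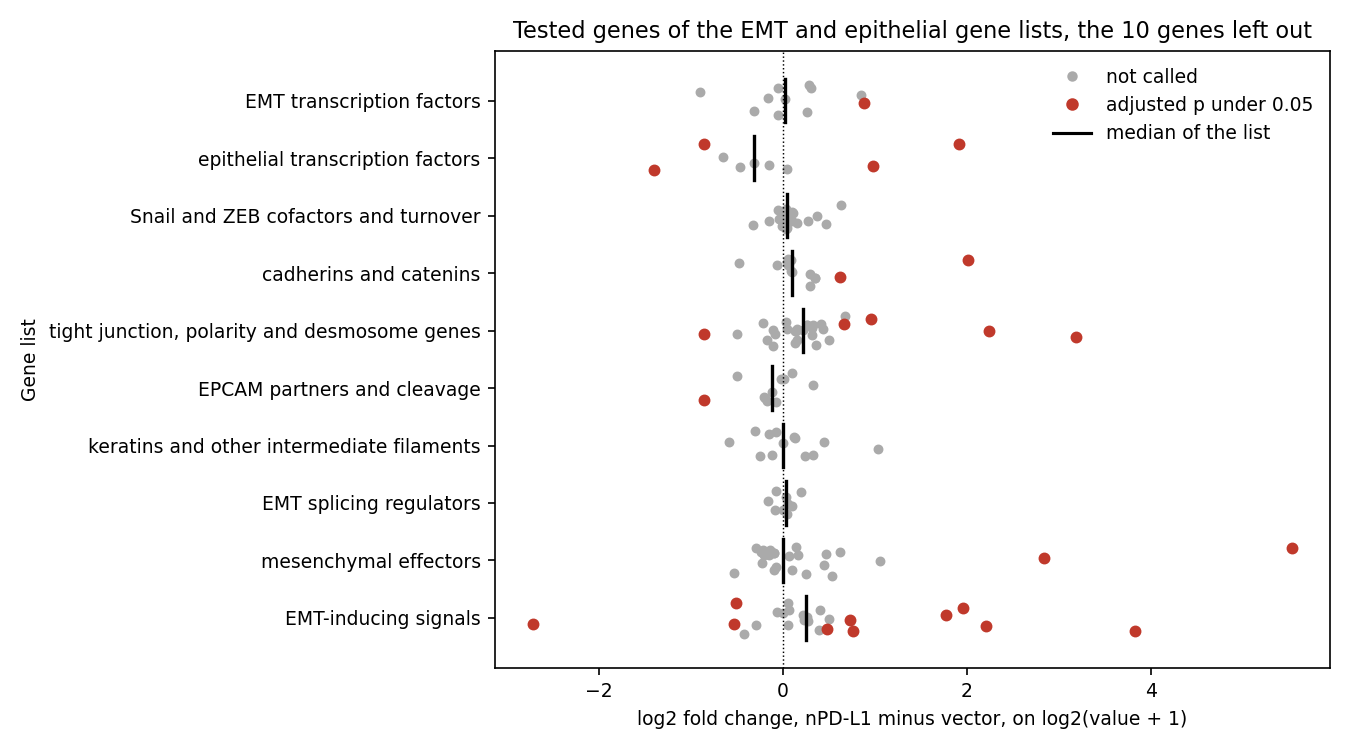
log2 fold change of nPD-L1 minus vector on the log2(value + 1) scale for the tested genes of 10 lists, with the 10 genes of interest left out. Red points had an adjusted p under 0.05, grey points did not, the black bars are list medians, and vertical scatter within a list has no meaning. Most points of the cofactor, splicing and intermediate filament lists lie near 0 with no red point, while IL6 (−2.71) is at the far left of the list of inducing signals and SKIL (3.83) at its far right.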

How the data were processed

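RNA sequencing and analysis had been done by a company, from TRIzol-purified RNA and NEBNext Ultra RNA libraries, a kit that does not mark strand. The submitters' processing notes name CASAVA, HISAT2 (2.0.5) and hg38. The counter, annotation and strand setting were not given in the sources used here. The authors' deposited values per library, presented as raw, are a signal: reads per gene divided by a library size factor. In 4 libraries (vector replicates 2 and 3, nPD-L1 replicates 1 and 3), 100% of values were whole multiples of 1 read (tolerance 0.1 read). The steps of the other 2 lay too near 1 for the rule used, and their reads were not recovered. Their low values also lay at even steps. Examples are 1.00935, 2.01869 and 4.03738 in vector replicate 1 and 1.01142, 3.03425 and 4.04567 in nPD-L1 replicate 2. Count models on all 6 libraries were not run. The table also holds group means and the authors' own fold changes, p-values and adjusted p-values, which were not used.

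Libraries were grouped by title. Genes that reached 10 scaled reads in 3 or more libraries (15076 of 27009) were fitted with limma 3.58.1 (R 4.3.3) on log2(value + 1), with trend and robust moderation and Benjamini-Hochberg adjustment, called at an adjusted p under 0.05. Such fold changes understate those of low genes. No scaling was added, since the median ratio to the geometric mean was 1.00 in every library. edgeR 4.0.16 and DESeq2 1.42.0 were run on the recovered reads of 4 libraries only, as alternatives, because reads were recovered only in these. Other alternatives were upper-quartile factors, filters, pseudocounts of 0.1 and 10, moderation without robust, a replicate block, other thresholds and each library left out. Of these fits, limma on all 6 libraries and edgeR on 4 were tried on simulated data, and DESeq2 and the other alternatives were not.

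The 10 genes and the lists were chosen with earlier results of these data known. All 10 genes are named. From each list, up to 6 called genes with the largest log2 fold changes and the 2 with the highest level per kilobase are named, besides CD274. Sequences are RefSeq windows. Of 10 genes, 4 had one. A few genes that the rule would name are not reported here.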

Additional observations from a re-analysis of the deposited data

How the results depend on the processing

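The count of 2 higher and 0 lower among the 10 genes stayed in all settings but 2. It became 3 higher with the replicate number as a block and 4 at an unadjusted p under 0.05 (ZEB1 and CDH1 joining), and 0 were lower in every setting. Leaving out each library in turn left 2 higher genes each time. The sign of 3 genes near 0 changed when a library was left out: VIM to 0.0108 without vector replicate 2 and 0.0112 without nPD-L1 replicate 2 (range −0.0893 to 0.0112), EPCAM to 0.0690 without nPD-L1 replicate 1 (−0.58 to 0.0690), and ESRP1 to 0.15 without vector replicate 2 and 0.03 without nPD-L1 replicate 3 (−0.22 to 0.15).

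Of the other program genes, 18 higher and 6 lower became 39 and 11 at an unadjusted limma p under 0.05. They became 10 and 2 with a log2 fold change of at least 1, and 15 and 5 with a minimum of 10 in all 6 libraries. On 4 libraries, which are fewer samples, they were 9 and 3 in edgeR and 9 and 2 in limma. Leaving out each library gave 9 to 25 higher and 3 to 9 lower. Over all genes, 609 higher and 139 lower became 1436 and 710 at an unadjusted limma p under 0.05. On 4 libraries they became 264 and 61 in edgeR, 333 and 85 in DESeq2 and 254 and 53 in limma. They ranged from 350 to 793 and from 77 to 244 with a library left out. Recovered reads on EPCAM and ESRP1 were 12 to 31 a library, and what more depth would show was not tested.

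With the replicate number as a block, 28 program genes were higher, all-gene calls were 927 and 258, and ZEB1 was called (0.42, adjusted p = 0.0406 from limma). Whether the numbers pair the libraries was not settled. The correlations of deviations for numbers 1, 2 and 3 were −0.013, 0.229 and 0.131. That of number 2 was the highest between any vector and any nPD-L1 library. Of 6 libraries, 4 correlated best with their own number.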
